A study of Rattus norvegicus with 30 samples.

Results

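Immediate early genes were followed in the hippocampal transcriptome of rats given access to methamphetamine (METH) and then to foot-shocks. The group was defined as 9 Ensembl genes, named here by symbol, and a gene was to be dropped if the count tables placed it on another chromosome than the one listed for its symbol. All 9 were kept, out of 32552 genes in the tables, and all 9 passed edgeR's default filter on low counts, which left 15797 genes. In the coordinates of the tables, whose genome build is not given in the sources used here, they were Fos (ENSRNOG00000008015, chr6:109300433-109303299), Junb (ENSRNOG00000042838, chr19:26092974-26094756), Jun (ENSRNOG00000026293, chr5:114011189-114014277), Egr1 (ENSRNOG00000019422, chr18:27657628-27661429), Egr2 (ENSRNOG00000000640, chr20:22454463-22459025), Nr4a1 (ENSRNOG00000007607, chr7:142905758-142920216), Arc (ENSRNOG00000043465, chr7:115907097-115910541), Dusp1 (ENSRNOG00000003977, chr10:16970626-16973418) and Btg2 (ENSRNOG00000003300, chr13:50913180-50916982). The tables do not pair identifiers with symbols, so the chromosome was the check of identity. None of the 9 genes was overlapped by another gene of the tables on either strand.

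The libraries came from 30 adult wild type male Sprague Dawley rats, 1 library per rat, and asked how METH taking and punishment alter hippocampal gene expression. The CT rats (n = 7) took saline and were never shocked. The shock-resistant SR rats (n = 7) and the shock-sensitive SS rats (n = 6) took METH for 21 days and then had 8 days on which foot-shocks punished lever presses. SR rats went on pressing for METH under punishment, whereas SS rats reduced their intake more. Yoked controls had saline instead of METH and were shocked whenever a partner was, 5 of them alongside SR rats (YSR) and 5 alongside SS rats (YSS). SR and SS were therefore formed by behavior, not assigned, and the 5 groups share strain, sex, age and the self-administration setting. The tissue field of the labels reads dorsal striatum while their protocol and the study's methods name the hippocampus. Dissection is given as 2 hours after the last session in one place and as immediately after it in another. Markers of either tissue were not analysed here because no table at hand pairs these identifiers with symbols.

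Immediate early genes are transcribed within minutes of a neuronal or hormonal stimulus, without new protein synthesis, and their transcripts decay quickly. Fos, Jun and the Egr and Nr4a families encode transcription factors, whereas Arc encodes a protein acting at synapses. In the hippocampus they are widely used as markers of recent neuronal activity, so that the time between behavior and dissection matters for their level. In bulk tissue, more cells expressing a transcript and more transcript per cell cannot be told apart.

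Total counts per library were between 14584340 and 19997820. Levels are given as CPM after TMM normalization, and levels of different genes are compared as CPM per kilobase of the length listed in the tables. Codes in the titles put 11 libraries in a cohort XII and 19 in a cohort XIII, each with a letter L or R, and neither code is explained in the labels. Of the SR rats 4 of 7 were in cohort XII, against 1 of 7 CT rats, so that cohort and group were partly tied. Values of cohort XIII alone are therefore printed for the comparisons with differences at an unadjusted p under 0.05. The letter was uneven over groups too. L was the letter of 0 of 5 YSR, 3 of 5 YSS, 4 of 6 SS, 3 of 7 SR and 2 of 7 CT rats.

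One library stood apart in these genes before any comparison was made. The SR rat XII-L05 had the highest level of 30 libraries in 8 of the 9 genes, the exception being Egr2, in which it was among the top 3. It also had the highest share of mitochondrial counts, 9.69%, and the most extreme score, 26.2, on the third principal component of all genes tested. At the other end, the YSS rat XIII-L06 was lowest of 30 in 7 genes, and the CT rat XIII-R05 was among the lowest 3 in 8 genes. Their mitochondrial shares were 8.18% and 7.51%, and their scores on the third principal component -13.7 and 8.39. Comparisons of the 9 genes that include SR rats are therefore given with and without SR XII-L05. Those of YSS rats are given with and without YSS XIII-L06. Both rats were picked by their levels of these same genes, so the direction of such changes was set by that choice. The part of mitochondrial share in the comparisons was not tested.

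Per kilobase, Jun was the most abundant of the 9 genes, at 43.9 ± 3.53 CPM per kilobase (SD, n = 30). Junb (33.0 ± 6.01), Arc (31.6 ± 8.26) and Egr1 (29.6 ± 6.23 CPM per kilobase, each SD, n = 30) followed, and neighbors among these 3 did not differ beyond their spread. Junb exceeded Arc in 20 of 30 libraries and Arc exceeded Egr1 in 19 of 30. Nr4a1 lay at 19.2 ± 5.69, Dusp1 at 14.4 ± 5.36, Btg2 at 9.29 ± 2.64 and Fos at 8.20 ± 2.73 CPM per kilobase, with Btg2 above Fos in 23 of 30 libraries. Egr2 was lowest at 1.22 ± 0.59 CPM per kilobase. Its counts were between 24 and 151 per library, so that its values carry more counting error than those of Fos (84 to 473 counts) or Jun (1942 to 2876 counts).

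The spread between rats of the same group was above the median of all genes tested for each of these genes but Jun. The SD around the group means was 0.66 log2 units for Egr2, at the percentile 96.8 of all genes tested, 0.45 for Fos (percentile 88.8) and 0.43 for Dusp1 (percentile 87.6). For Nr4a1, Btg2 and Arc it was 0.34, 0.32 and 0.31 log2 units (percentiles 80.9, 79.4 and 78.4), and for Egr1 and Junb 0.26 and 0.22 (percentiles 72.4 and 66.6). Jun had an SD of 0.13 log2 units, at the percentile 39.6 and below the median of 0.15 over all genes tested. Across all libraries the highest value exceeded the lowest 6.75-fold in Egr2, 6.53-fold in Fos and 5.72-fold in Dusp1, but 1.36-fold in Jun.

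**Figure D1:**
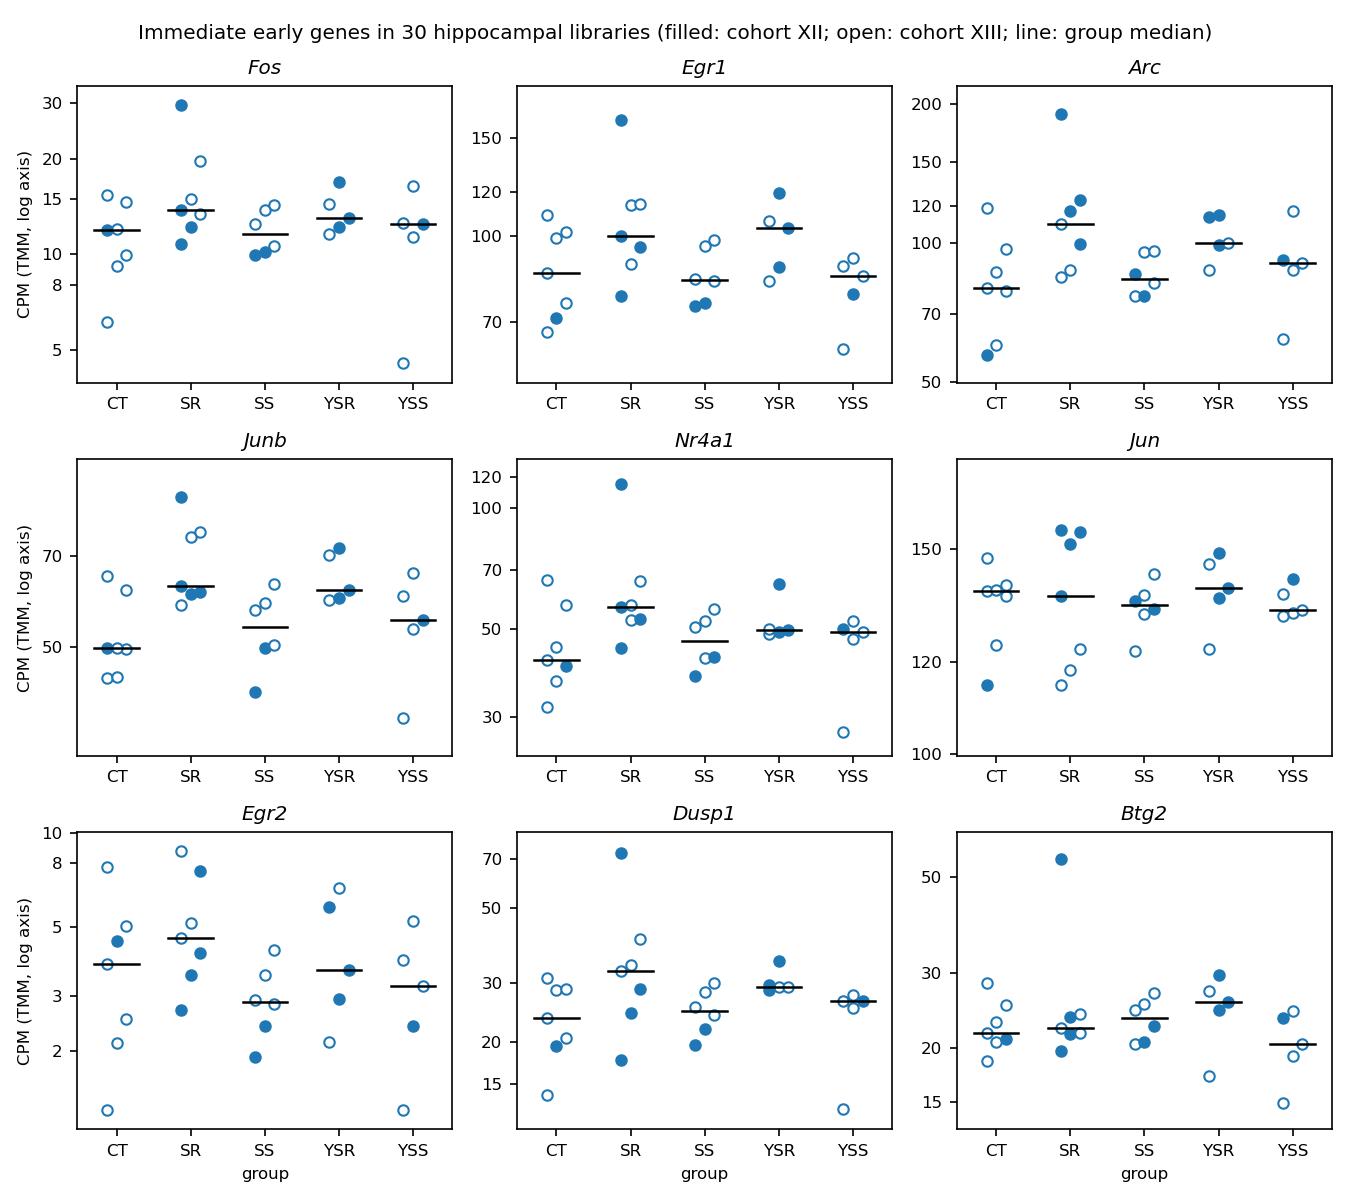
Each panel shows 1 gene and each point 1 rat, as CPM on a log axis (TMM normalization), by group, with filled points for cohort XII, open points for cohort XIII and a line at the group median. The SR rat XII-L05 is the highest point of 8 panels, with 29.6 CPM of Fos and 55.2 CPM of Btg2. In Jun the SR points of the 2 cohorts lie apart, and in the other panels they overlap. The share of all genes that separate in this way was not computed.

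The first question was whether any of the 9 genes differed among the 5 groups. In edgeR's F test across groups 0 of 9 genes passed an adjusted p of 0.05, where 27 of 15797 genes did (0.171%). At an unadjusted p under 0.05 there were 5 of 9 genes (Junb, Arc, Egr1, Dusp1 and Nr4a1), where 7.32% of all genes were. Junb had the smallest unadjusted p of the 9, 0.00242, with an adjusted p of 0.371 in edgeR. Without SR XII-L05, 1 of 9 genes was left at an unadjusted p under 0.05, where 6.56% of all genes were.

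Fos encodes the c-Fos subunit of the AP-1 factor, the most used activity marker of the group. In CT rats Fos ranged from 6.13 to 15.4 CPM with a median of 11.9, in SR rats from 10.8 to 29.6 with a median of 13.8, and in SS rats from 9.96 to 14.3 with a median of 11.6. YSR rats had 11.6, 12.2, 13.1, 14.4 and 16.9 CPM of Fos, and YSS rats 4.53, 11.4, 12.5, 12.6 and 16.5 CPM. The groups overlapped widely, with 2 of 7 SR rats above every CT rat and the lowest value of all in a YSS rat. In SR vs. CT the log2 fold change of Fos was 0.53 ± 0.214 (SE), with an adjusted p of 0.403 in edgeR. An exact two-sided permutation test of mean log2 CPM gave p = 0.0647, and the log2 fold change was 0.33 ± 0.198 (SE) without SR XII-L05 and 0.52 ± 0.276 in cohort XIII alone.

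Junb, another AP-1 subunit, separated the groups more than Fos did. It ranged from 44.7 to 64.9 CPM in CT rats (median 49.8), from 58.3 to 86.8 in SR rats (median 62.7) and from 42.4 to 63.2 in SS rats (median 53.9). YSR rats had 59.4, 59.9, 61.7, 70.3 and 72.0 CPM of Junb, whereas YSS rats had 38.5, 53.5, 55.2, 60.3 and 65.8 CPM. All 7 SR and all 5 YSR rats were above the CT median, and 5 of 7 CT rats were below the lowest SR rat, yet the ranges overlapped. In SR vs. CT the log2 fold change of Junb was 0.40 ± 0.106 (SE; 95% interval 0.18 to 0.62), with an adjusted p of 0.281 in edgeR and an unadjusted exact permutation p of 0.00816. Without SR XII-L05 it was 0.34 ± 0.105 (SE), and in cohort XIII alone 0.41, so that the size of the Junb difference moved little. The adjusted p in edgeR was 0.429 without that rat and 0.573 in cohort XIII.

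Jun, the AP-1 partner of Fos, had nearly equal group means but differed between cohorts within SR rats. SR rats of cohort XIII had 115, 118 and 123 CPM of Jun, and SR rats of cohort XII had 137, 151, 155 and 156 CPM. The 2 sets did not overlap in Jun but overlapped in each other gene of the group. The share of all genes that separate these rats in this way was not computed. CT rats of cohort XIII ranged from 124 to 147 CPM of Jun, and the single CT rat of cohort XII had 115 CPM. Over all libraries the log2 fold change of Jun in SR vs. CT was 0.03 ± 0.0629 (SE; 95% interval -0.10 to 0.15). In cohort XIII alone it was -0.21, with an adjusted p of 0.401 in edgeR, so that the sign differed from that over all libraries. In SR vs. SS the log2 fold change of Jun was -0.17 in cohort XIII and 0.16 in cohort XII, the latter with 4 SR and 2 SS rats.

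Arc encodes a cytoskeleton-associated protein whose transcript travels to active synapses. Arc ranged from 57.2 to 119 CPM in CT rats (median 80.0), from 84.2 to 190 in SR rats (median 110) and from 76.7 to 95.9 in SS rats (median 83.6). YSR rats had 87.5, 99.1, 99.8, 114 and 115 CPM of Arc, and YSS rats 61.8, 87.3, 90.4, 91.7 and 117 CPM. All 7 SR rats exceeded the CT median, and 2 of them exceeded the highest CT rat. In SR vs. CT the log2 fold change of Arc was 0.49 ± 0.153 (SE), with an adjusted p of 0.323 in edgeR and an unadjusted exact permutation p of 0.0338. It was 0.33 ± 0.135 (SE) without SR XII-L05 and 0.11 in cohort XIII alone, where 3 SR rats were set against 6 CT rats.

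Nr4a1 and Egr1 encode a nuclear receptor and a zinc finger factor, and Dusp1 a phosphatase that acts on MAP kinases. Nr4a1 ranged from 31.9 to 66.1 CPM in CT rats (median 41.9) and from 44.7 to 115 in SR rats (median 56.7). Dusp1 ranged from 13.9 to 31.1 CPM in CT rats (median 23.6) and from 17.8 to 72.8 in SR rats (median 32.5). Egr1 ranged from 67.0 to 109 CPM in CT rats (median 85.7) and from 77.9 to 162 in SR rats (median 99.7). In each of the 3 genes the lowest SR rat, XII-R05, was inside the CT range and the highest, XII-L05, was above it. The log2 fold changes in SR vs. CT were 0.48 ± 0.169 for Nr4a1, 0.59 ± 0.209 for Dusp1 and 0.31 ± 0.126 for Egr1 (SE), and they were 0.27 ± 0.140, 0.32 ± 0.173 and 0.18 ± 0.112 without SR XII-L05. Btg2, an antiproliferative cofactor, went from 0.24 ± 0.168 to -0.03 ± 0.110 (SE) on the same log2 scale when that rat was left out, and Egr2 from 0.43 ± 0.317 to 0.32 ± 0.329. Egr2 moved more with other single rats, from 0.25 without SR XIII-R09 to 0.69 without CT XIII-R12. In cohort XIII alone the log2 fold changes were 0.33 for Nr4a1, 0.55 for Dusp1, 0.24 for Egr1, -0.02 for Btg2 and 0.72 for Egr2. Exact permutation p over all SR and CT rats was 0.0495 for Nr4a1, 0.0962 for Dusp1 and 0.095 for Egr1.

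Counted over the group, 0 of 9 genes passed the adjusted threshold in SR vs. CT in edgeR, as did 0% of all genes, and DESeq2 and Tukey's test also called 0 of 9. At an unadjusted p under 0.05, 6 of 9 genes were higher in SR rats (Fos, Egr1, Arc, Junb, Nr4a1 and Dusp1), where 4.82% of all genes were higher and 10.5% passed in either direction. The median log2 fold change was 0.43 over the 9 genes and 0.0028 over all genes tested. Without SR XII-L05 the count was 2 of 9 (Junb and Arc), where 8.30% of all genes passed. Without CT XIII-R05 it was 4 of 9, where 10% passed, and Fos and Egr1, at log2 fold changes of 0.42 and 0.25, did not. In cohort XIII alone it was 3 of 9, with Junb and Dusp1 higher and Jun lower in SR rats, where 7.19% passed. With cohort as a covariate over all 30 libraries it was again 6 of 9, where 6.83% passed.

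The METH groups were then compared with each other, which asks whether rats that kept pressing differ from rats that reduced their intake more. The study reports that SR rats also took more METH and received more shocks under punishment than SS rats. SR vs. SS therefore cannot tell phenotype, METH intake and shock number apart. Again 0 of 9 genes passed the adjusted threshold in SR vs. SS in edgeR, DESeq2 or Tukey's test, as did 0% of all genes in edgeR. At an unadjusted p under 0.05, 7 of 9 genes were higher in SR rats, all but Jun and Btg2, with Fos at the border, where 3.44% of all genes were higher and 7.46% passed in either direction. With cohort as a covariate 6 of 9 passed, where 6.74% of all genes did, and Fos, at a log2 fold change of 0.46, did not. Egr2 had the widest difference, from 1.91 to 4.21 CPM in SS rats (median 2.87) and from 2.71 to 8.74 in SR rats (median 4.61). Its log2 fold change was 0.81 ± 0.339 (SE), with an adjusted p of 0.616 in edgeR and an exact permutation p of 0.0239. For the other 6 genes the exact permutation p was 0.0128 (Junb), 0.0227 (Arc), 0.0443 (Nr4a1), 0.0583 (Egr1), 0.0921 (Fos) and 0.16 (Dusp1), so that 4 of the 7 were under 0.05 in both tests. Of the SR rats 4 of 7 exceeded every SS rat in Egr2, and 5 of 7 did so in Arc.

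The SR vs. SS count moved with single rats. Without SR XII-L05, 1 of 9 genes (Junb) was at an unadjusted p under 0.05, where 5.74% of all genes were. Without the SS rat XII-R03 there were 4 of 9, where 8.38% of all genes were. The log2 fold change of Junb was 0.36 ± 0.111 with all rats and 0.29 ± 0.109 (SE) without SR XII-L05, that of Arc 0.44 ± 0.160 and 0.28 ± 0.140, and that of Egr2 0.81 ± 0.339 and 0.70 ± 0.350. Fos went from 0.46 to 0.25, Nr4a1 from 0.44 to 0.23, Dusp1 from 0.52 to 0.25 and Egr1 from 0.34 to 0.21. In cohort XIII alone they were 0.29 ± 0.153 for Junb, 0.10 ± 0.187 for Arc and 0.88 ± 0.479 (SE) for Egr2, and 0.33 for Fos, 0.23 for Egr1, 0.22 for Nr4a1 and 0.40 for Dusp1. There, 1 of 9 genes (Jun, lower in SR rats) passed, where 6.74% of all genes did. In cohort XII, with SR XII-L05 among its 4 SR rats, 6 of 9 genes passed, all higher in SR rats, where 8.32% did; that fit was chosen after seeing the data.

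**Figure D2:**
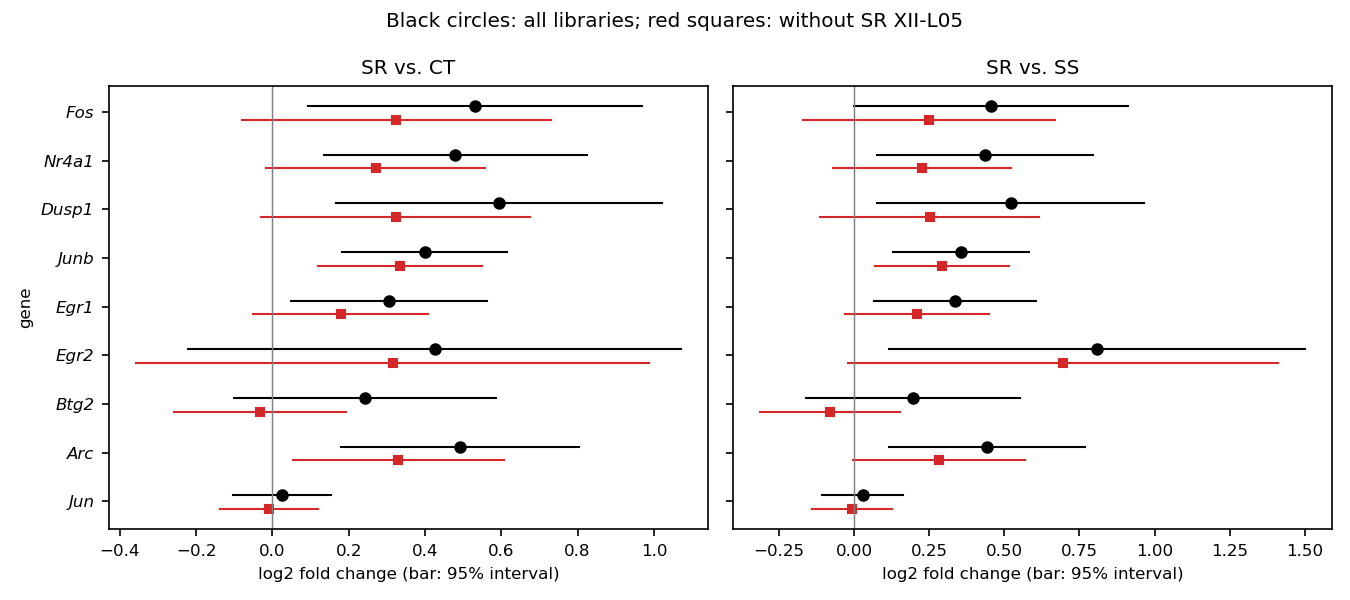
Log2 fold changes of the 9 genes in SR vs. CT and SR vs. SS from edgeR, with bars for the 95% interval, for all libraries (black circles) and without SR XII-L05 (red squares). Without that rat the interval stays above 0 for Junb and Arc in SR vs. CT and for Junb alone in SR vs. SS, and Btg2 moves from 0.24 to -0.03 in SR vs. CT.

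Yoked rats address the shocks without METH. In YSR vs. CT, 0 of 9 genes passed the adjusted threshold in edgeR, where 0.12% of all genes did, and 1 of 9 (Junb, higher) had an unadjusted p under 0.05, where 3.89% were higher and 7.56% passed in either direction. The log2 fold change of Junb was 0.31 ± 0.116 (SE), with an adjusted p of 0.593 in edgeR and an exact permutation p of 0.0278. In cohort XIII alone, with 2 YSR rats, it was 0.30 ± 0.162 for Junb, and for Arc 0.11 ± 0.198 against 0.32 ± 0.167 over all libraries (SE). SR XII-L05 enters YSR vs. CT only through the joint fit. Without it, 2 of 9 genes (Junb and Arc, both higher) had an unadjusted p under 0.05 in edgeR, where 7.71% of all genes did. All 5 YSR rats exceeded the CT median in Junb, Arc, Nr4a1 and Dusp1, 4 of 5 in Fos, Egr1 and Btg2, 3 of 5 in Jun and 2 of 5 in Egr2. Dusp1 was tightly grouped in YSR rats, at 28.5, 29.1, 29.1, 29.6 and 34.8 CPM. In YSS vs. CT no gene of the 9 passed either threshold in edgeR, against 0.0823% adjusted and 5.01% unadjusted of all genes, and the median log2 fold change was 0.00035 with a range from -0.27 to 0.12. Without YSS XIII-L06 the median was 0.12, with a range from -0.07 to 0.23, and again 0 of 9 passed either threshold, where 5.71% of all genes had an unadjusted p under 0.05. SR and YSR rats share the CT rats as controls in these comparisons, so their values are not independent.

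In SS vs. CT edgeR likewise placed 0 of 9 genes past either threshold, against 0.101% adjusted and 5.01% unadjusted of all genes. The widest interval was that of Egr2, whose log2 fold change of -0.38 ± 0.343 (SE) had a 95% interval from -1.08 to 0.32. Junb, at 0.04 ± 0.111, had an interval from -0.19 to 0.27. These intervals leave room for changes of that size in SS rats, so that a lack of difference was not shown.

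SR vs. YSR and SS vs. YSS set METH rats against yoked rats that were also shocked. The rats were compared as groups, 7 SR with 5 YSR and 6 SS with 5 YSS; which rat was yoked to which is not given in the labels and was not used. In SR vs. YSR 0 of 9 genes passed either threshold in edgeR, where 0.0253% of all genes passed adjusted and 8.17% unadjusted. Log2 fold changes were between -0.02 (Jun) and 0.28 (Egr2 and Nr4a1), and that of Junb was 0.09 with a 95% interval from -0.15 to 0.32. Without SR XII-L05 the median over the 9 genes was 0.01 in place of 0.17. That rat was picked for high levels of these same genes, so leaving it out was bound to lower the median. Nr4a1 was then 0.07 and Egr2 0.17, each in place of 0.28, and Fos was 0.05 in place of 0.26. In cohort XIII alone 1 of 9 genes had an unadjusted p under 0.05 in SR vs. YSR, where 4.54% of all genes did. In SS vs. YSS 0 of 9 genes passed either, against 0% and 4.27%, with log2 fold changes between -0.11 and 0.19. Without YSS XIII-L06 they were between -0.32 and 0.09, and 1 of 9 was above 0 in place of 5. The pooled contrast of METH vs. yoked rats gave 0 of 9 as well, against 0% and 7.48%, and its largest log2 fold change was 0.17 ± 0.134 (SE) in Nr4a1. That of Nr4a1 was 0.06 ± 0.108 without SR XII-L05 and 0.10 ± 0.128 (SE) without YSS XIII-L06.

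YSR vs. YSS, the interaction and all yoked rats vs. CT were also without calls at the adjusted threshold. The study reports more shocks in SR rats and their yoked controls than in SS rats and theirs. YSR and YSS rats took saline, so YSR vs. YSS compares numbers of shocks and not phenotypes. In YSR vs. YSS all 9 log2 fold changes were above 0, with a median of 0.25, yet edgeR placed 0 of 9 genes past either threshold, against 0% and 3.29% of all genes. With cohort as a covariate, 2 of 9 had an unadjusted p under 0.05, where 3.75% of all genes did. SR XII-L05 enters YSR vs. YSS only through the joint fit. Left out, it gave 2 of 9 as well (Egr1 and Btg2, both higher in YSR rats), where 3.36% of all genes passed. Without YSS XIII-L06 the median was 0.14, and Fos was 0.04 in place of 0.25. Egr1 came closest, from 62.4 to 91.1 CPM in YSS rats and from 83.0 to 119 in YSR rats, with a log2 fold change of 0.31 ± 0.150 (SE) and an adjusted p of 1 in edgeR. The interaction, which asks whether the METH minus yoked difference depends on phenotype, gave 0 of 9 past either, against 0% and 5.43%. Without SR XII-L05, 1 of 9 (Btg2, at -0.35 ± 0.17, SE) had an unadjusted p under 0.05, where 4.73% of all genes did. The estimate of the interaction for Fos was 0.20 ± 0.338 (SE) on the log2 scale, with a 95% interval from -0.49 to 0.89. It was -0.0043 ± 0.304 without SR XII-L05 and 0.41 ± 0.299 (SE) without YSS XIII-L06, so that it moved with either rat. All yoked rats vs. CT gave 0 of 9 as well, against 0.146% adjusted and 7.7% unadjusted, with Junb at 0.19 ± 0.0988 (SE). Without YSS XIII-L06, 1 of 9 had an unadjusted p under 0.05, where 8.19% of all genes did.

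Apart from the group means, rats within a group differed in most of these genes together. After the group mean was subtracted from log2 CPM, Pearson's r and Spearman's rho were computed for 36 pairs, with permutation p from 100000 exchanges within groups and Benjamini-Hochberg adjustment over the 36 pairs. Fos and Nr4a1 had r = 0.88 and rho = 0.81 (n = 30), both at a permutation p of 1e-05, the smallest these permutations can give. Fos and Dusp1 had r = 0.875 and rho = 0.816, Fos and Junb r = 0.857 and rho = 0.906, and Fos and Egr1 r = 0.825 and rho = 0.824, at permutation p of 1e-05 or 2e-05 (adjusted 3.6e-05 or 6.55e-05). Among the 28 pairs without Jun, r was between 0.298 and 0.88 with a median of 0.74, and 26 pairs had an adjusted permutation p under 0.05 by both measures. The exceptions were Arc with Egr2 (r = 0.384, permutation p = 0.0705, adjusted 0.0846; rho = 0.328, permutation p = 0.109, adjusted 0.131) and Btg2 with Egr2 (r = 0.298, permutation p = 0.125, adjusted 0.145; rho = 0.234, permutation p = 0.24, adjusted 0.278).

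Jun did not follow the others over both cohorts. Its r was -0.0652 with Fos, -0.16 with Junb, -0.0212 with Dusp1, 0.0538 with Egr1 and 0.0756 with Nr4a1, with adjusted permutation p from 0.471 to 0.94. All 5 were negative in cohort XIII (-0.247, -0.405, -0.359, -0.413 and -0.325, in this order) and positive in cohort XII (0.424, 0.191, 0.564, 0.533 and 0.411), a difference that was not tested. Without SR XII-L05 they were -0.263, -0.321, -0.292, -0.165 and -0.171. With Arc it was 0.469 (permutation p = 0.0291, adjusted 0.0374; rho = 0.366, permutation p = 0.0678, adjusted 0.0842). With Btg2 it was 0.435 (permutation p = 0.0412, adjusted 0.0511; rho = 0.408, permutation p = 0.0275, adjusted 0.0354), so that both relations passed by 1 measure only; within cohorts XIII and XII the r with Btg2 was 0.337 and 0.56. Without SR XII-L05 the r of Jun was 0.279 with Btg2 and 0.357 with Arc. With Egr2 the sign was negative, r = -0.432 and rho = -0.44 (permutation p = 0.0253 and 0.0268, adjusted 0.0338 and 0.0354). Without the 2 libraries farthest from the median of Jun, r with Egr2 was -0.477. Within cohort XIII it was -0.609, and within cohort XII 0.261 (9 libraries, exact permutation p = 0.625), so that the relation was not seen in cohort XII and the difference between cohorts was not tested. The r of Jun with Arc was 0.361 without the 2 libraries farthest in Arc, 0.0241 in cohort XIII and 0.209 in cohort XII, so that it did not hold within cohorts.

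Most of the co-variation of the other 8 genes remained without the rats at the ends. Without the 2 libraries farthest from the median of Fos, SR XII-L05 and YSS XIII-L06, r was 0.783 for Fos with Nr4a1, 0.775 with Dusp1, 0.765 with Junb, 0.764 with Egr1 and 0.817 with Egr2. It was 0.427 for Fos with Arc (0.673 with all libraries) and 0.474 for Fos with Btg2 (0.701 with all). For Junb with Btg2 it was 0.21 against 0.51 with all libraries, so that this relation rested on those rats. Egr1 with Btg2 fell from 0.629 to 0.381 without SR XII-L05 and SR XII-R05, the 2 libraries farthest in Egr1. It was 0.411 without SR XII-L05 alone and 0.337 in cohort XIII. Within cohort XIII (19 libraries) r of Fos was 0.856 with Nr4a1, 0.925 with Dusp1, 0.859 with Junb and 0.82 with Arc, and r of the 28 pairs was between 0.254 and 0.925. Within cohort XII, 9 libraries of the 3 groups with at least 2 rats, it was between 0.728 and 0.991. With 288 possible arrangements there, the smallest exact permutation p was 0.00347, and 0 of 36 pairs had an adjusted p under 0.05.

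The 3 measures of the whole library that were tried ran less closely with Fos over all libraries than most of the other members did. Against 3 such measures, with group means subtracted (n = 30), r was -0.176 for the total count (rho = -0.179, permutation p = 0.292 and 0.354), 0.181 for the mitochondrial share (rho = 0.0994, permutation p = 0.34 and 0.615) and -0.00826 for the first principal component (rho = -0.0469, permutation p = 0.965 and 0.817). Adjusted over the 3 relations, the p for r was 0.51, 0.51 and 0.965, and for rho 0.817 in all 3. Without the 2 libraries farthest in each measure, r was -0.283, -0.0403 and 0.0925. Within cohort XII the r of Fos with the mitochondrial share was 0.761 (9 libraries, SR XII-L05 among them), against -0.0751 within cohort XIII. Leaving out SR XII-L05 alone gave -0.0553 over both cohorts. The r of Fos with the total count was 0.065 within cohort XII and -0.373 within cohort XIII. With the first principal component it was 0.579 within cohort XII and -0.221 within cohort XIII. The r of Fos with the third principal component, on which SR XII-L05 scored 26.2 and YSS XIII-L06 -13.7, was not computed.

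Set against all genes tested, the other members stood near the top of those that vary with Fos. By r to Fos over the 30 libraries, Nr4a1 ranked 1 of 15796 other genes, Dusp1 2, Junb 3, Egr1 4, Egr2 6, Btg2 15 and Arc 17, whereas Jun ranked 10292. Ranks without SR XII-L05 and YSS XIII-L06 were not computed. Without these 2 libraries the r to Fos fell to 0.474 for Btg2 and 0.427 for Arc. Over all genes tested the median r to Fos was 0.0074, and 85 genes had an r over 0.5, each with all libraries. The gene outside the 9 with the highest mean r to them was ENSRNOG00000007830 (chr4:168752133-168755023), with a mean r of 0.656 over 30 libraries, an r to Fos of 0.791 and a level of 12.8 CPM. Its log2 fold change in SR vs. CT was 0.98 ± 0.334 (SE), with an adjusted p of 0.364 in edgeR, and is not given without SR XII-L05. The highest r to Fos outside the 9 was 0.825, in ENSRNOG00000046667 (chr1:80214494-80221710). Among genes outside the 9, those nearest to Arc had r of 0.718, 0.708 and 0.691. These were above the 0.673 of Arc with Fos and below the 0.762 of Arc with Nr4a1. In all, 16 genes outside the 9 had a mean r over 0.5; these are descriptions over rats that share groups and cohorts, and carry no test.

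**Figure D3:**
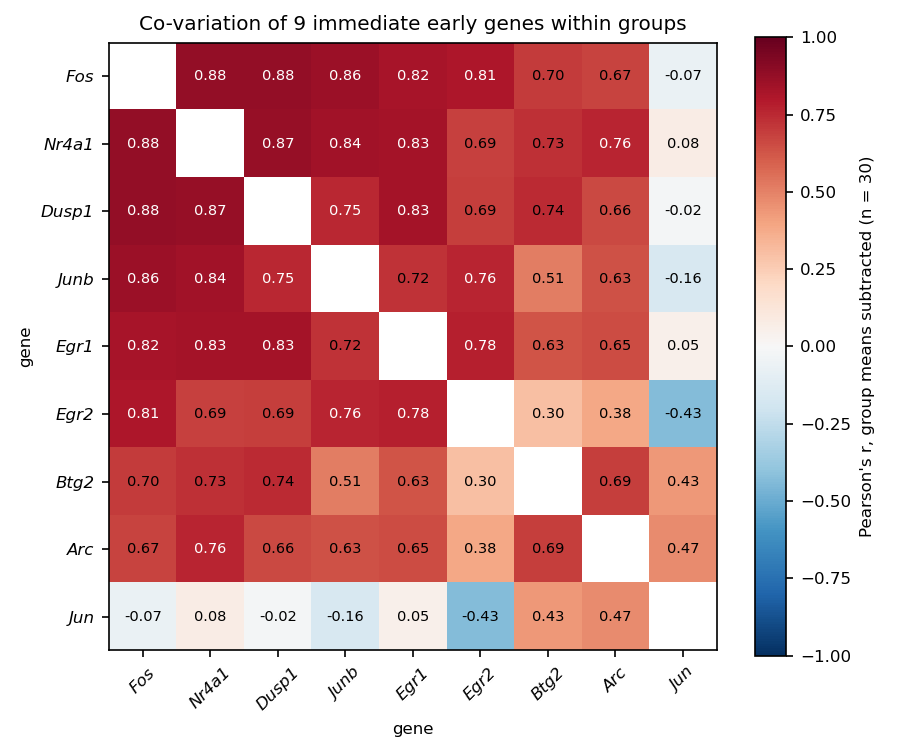
Pearson's r between each pair of the 9 genes over 30 libraries, computed on log2 CPM with group means subtracted, from -1 (blue) to 1 (red). The row of Jun runs from -0.43 with Egr2 to 0.47 with Arc, while the 28 other pairs lie between 0.30 and 0.88.

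The promoters of these genes were searched for elements known from inducible genes. RefSeq promoter sequences of build GRCr8, 250 bases before to 50 after the start of a gene, were matched by symbol to 6 of the 9 genes (Egr1, Egr2, Nr4a1, Junb, Dusp1 and Btg2), all 6 on the chromosome the tables give and 5 of 6 on the same strand. Junb was on the - strand in the tables and on the + strand in GRCr8, and the builds were not compared. Fos, Arc and Jun had no entry. The search covered both strands for the cAMP response element TGACGTCA, its short form TGACG, which the full element contains on both strands, the CArG box of the serum response element, the AP-1 site TGANTCA, the EGR site GCGNGGGCG and the NBRE AAAGGTCA bound by Nr4a1. The short form was present in 6 of 6 promoters, against 21.2% of 33469 promoters of the same length. The full element was in 2 of 6 (Dusp1 and Btg2), against 1.83%, the CArG box in 2 of 6 (Egr1 and Egr2), against 1.64%, and the EGR site in 2 of 6 (Nr4a1 and Btg2), against 4.98%. TGANTCA and AAAGGTCA were in 0 of 6, against 7.33% and 1.43%.

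Egr1 and Egr2 resembled each other in the placing of these letters. Counting back from the start of the gene, with the base before it at -1, both had a CArG box at -83 to -74 and the short form at -66 to -62. Egr1 had a further CArG box at -105 to -96 and a further short form at -135 to -131. The stretches that hold all matches are printed 5′ to 3′ on the strand of the gene with each match in capitals. They lie at chr18:26736928-26737031 (Egr1, + strand), chr20:21054488-21054539 (Egr2, - strand), chr10:17184666-17184751 (Dusp1, + strand), chr13:48087833-48087906 (Btg2, - strand), chr7:134259888-134260104 (Nr4a1, + strand) and chr19:40080956-40080990 (Junb, + strand) of GRCr8.
Egr1: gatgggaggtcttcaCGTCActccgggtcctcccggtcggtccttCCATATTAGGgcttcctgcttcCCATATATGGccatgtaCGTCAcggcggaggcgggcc
Egr2: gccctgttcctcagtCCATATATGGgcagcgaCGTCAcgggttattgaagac
Dusp1: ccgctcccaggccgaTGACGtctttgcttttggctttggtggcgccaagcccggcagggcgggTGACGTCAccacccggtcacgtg
Btg2: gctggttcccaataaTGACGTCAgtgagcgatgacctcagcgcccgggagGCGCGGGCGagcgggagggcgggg
Nr4a1: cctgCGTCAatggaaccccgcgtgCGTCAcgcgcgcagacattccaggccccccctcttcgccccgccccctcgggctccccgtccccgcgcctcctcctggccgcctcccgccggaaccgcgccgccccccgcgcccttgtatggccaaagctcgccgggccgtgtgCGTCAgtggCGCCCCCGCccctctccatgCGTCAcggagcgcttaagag
Junb: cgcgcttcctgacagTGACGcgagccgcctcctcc
A match is a description of letters, and binding was not measured in these rats.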

How the data were processed

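RNA from the hippocampus of 30 rats was sequenced after selection of polyadenylated RNA. Per the labels, the submitters' processing notes name bcl2fastq 2.17, Trimmomatic 0.36, STAR 2.5.2b and featureCounts of Subread 1.5.2. The authors deposited raw counts per Ensembl gene, 1 table per rat, not normalized; the genome build, the annotation and the use of strand are not given in the sources used here. The depth, 14584340 to 19997820 counts, puts 3 counts at 0.150 to 0.206 CPM. PCR duplicates cannot be told from molecules, so precision refers to counting error only.

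Groups were taken from the labels. edgeR 4.0.16 in R 4.3.3 (glmQLFit and glmQLFTest, TMM, default filter) was fitted to all 30 libraries with group as the only factor, with Benjamini-Hochberg adjustment over 15797 genes. Standard errors of log2 fold changes were derived from the F statistic. Log2 CPM used a prior count of 2. Single genes were compared by exact two-sided permutation tests without adjustment. Code was tested on simulated data. Over 11793 genes, chi-square per degree of freedom was at least 5.08 in 77 pairs of libraries of a group, so none was a repeat. Alternatives were DESeq2 1.42.0, one-way ANOVA with Tukey's test on log2 CPM, median-ratio size factors, other filters, and cohort or letter as a covariate. Further alternatives were cohort XIII alone, only the groups compared, a robust fit, prior counts of 0.5 and each library left out. Correlations were also computed on CPM of the total count. After seeing the data, SR rats were also compared with SS and with YSR rats within cohort XII. The genes named are the 9 members and, among other genes, those most correlated with them, at most 2 by identifier. Members and lists were chosen with earlier results of these data known. Cell type markers were not analysed, since no table given pairs their symbols with identifiers.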

Additional observations from a re-analysis of the deposited data

Results flagged for a closer look

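Of 45 combinations of gene and group, 8 had a rat beyond the Dixon limit, where chance gives about 1 in 20. The limit applies to the gap to the nearest neighbor as a share of the group's range. Gaps were taken on CPM and not on log2 CPM, and the flags depend on that scale. The share of flags over all genes was not computed. In 4 of the 8 combinations the rat was SR XII-L05, with 190 CPM of Arc (next 124), 115 of Nr4a1 (next 65.8), 72.8 of Dusp1 (next 40.4) and 55.2 of Btg2 (next 24.0). On log2 CPM its gaps in Arc and Dusp1 take up less of the range than the limit of 0.568, and those in Nr4a1 and Btg2 more. The YSS rat XIII-L06 lay below its group with 27.7 CPM of Nr4a1 (next 47.2) and 12.7 of Dusp1 (next 25.2). The YSR rat XII-R02 had 64.6 CPM of Nr4a1 (next 49.8), and the YSR rat XII-R10 had 34.8 CPM of Dusp1 (next 29.6). Since the genes vary together, such values of the same rat are not independent of each other.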

How the results depend on the processing

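None of the 9 genes passed the adjusted threshold in any comparison under any setting tried, the 30 fits with 1 library left out included. The test among 5 groups was not run in DESeq2. Tukey's test gave pairs of groups only, and a one-way ANOVA F test on log2 CPM gave the 5-group test beside it. Counts at an unadjusted p under 0.05 moved, and so did the share of all genes, given in brackets for each setting. For fits with 1 library left out, shares are given at the end of the paragraph for those at the ends. In SR vs. CT the 6 genes (10.5%) became 1 by Tukey's test (1.91%), whose p allows for all pairs of groups, 3 in cohort XIII (7.19%), and 2 (without SR XII-L05) to 7 with 1 library left out. In SR vs. SS the 7 (7.46%) became 6 by DESeq2 (7.38%), median-ratio factors (7.45%), the cohort (6.74%) and the robust fit (7.27%), 1 by Tukey's test (1.2%), 1 in cohort XIII (6.74%), and 1 to 7 with 1 left out. Among 5 groups the 5 (7.32%) became 1 by one-way ANOVA (7.04%) and 1 in cohort XIII (6.6%). They became 3 with the cohort as covariate (6.75%), 3 in the robust fit (7.15%), and 1 to 6 with 1 left out. In YSR vs. CT the 1 (7.56%) became 0 by Tukey's test (1.3%), 0 in cohort XIII (5.98%), 2 with the letter as covariate (6.32%), 3 with only the groups compared (9.45%), and 1 to 2 with 1 left out. In YSR vs. YSS the 0 (3.29%) became 1 with all genes (3.65%), 2 with the cohort (3.75%), 1 with the letter (3.1%), 3 with only the groups compared (4.17%), and 0 to 2 with 1 left out. In yoked vs. CT the 0 (7.7%) became 1 with all genes (7.27%), 1 with the cohort (6.03%), and 0 to 2 with 1 left out. SR vs. YSR (8.17%) had 1 in cohort XIII (4.54%), and the interaction 0 to 1 with 1 left out. Without SR XII-L05 there were 2 in SR vs. CT (8.3%), 1 in SR vs. SS (5.74%) and 1 among 5 groups (6.56%). That fit had 2 in YSR vs. CT (7.71%), 2 in YSR vs. YSS (3.36%) and 1 in the interaction (Btg2, negative, 4.73%). SR vs. CT had 7 without CT XIII-R12 (8.16%), and the 5-group test 6 without SR XII-R05 (6.95%). Yoked vs. CT had 1 without YSS XIII-L06 (8.19%). The causes were not tested.

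Genes called over the whole table at an adjusted p also depended on the test: DESeq2 gave 13 in SR vs. CT and 12 in SR vs. SS (edgeR 0 in both), 32 in SR vs. YSR (edgeR 4) and 12 in METH vs. yoked (edgeR 0). Requiring 10 counts in every library left 2 in SS vs. CT (16), 2 in YSS vs. CT (13), 4 among 5 groups (27) and 2 in yoked vs. CT (23), and cohort XIII alone left 0 in YSR vs. CT (19).

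Jun turned to -0.21 in SR vs. CT and -0.17 in SR vs. SS (log2 fold change) in cohort XIII, and its r with Egr2 to 0.26 in cohort XII. Positive pairs with an adjusted permutation p under 0.05 numbered 27 of 36, 24 to 28 with 1 library left out and 0 in cohort XII, which has 9 libraries. With a prior count of 0.5 the SD within groups of Egr2 was 0.68 in place of 0.66 log2 units. Depth limits Egr2 most, with 24 counts in its lowest library. Groups of 5 to 7 rats, phenotypes formed by behavior, cohorts unevenly spread over groups and a dissection time that the sources give in 2 ways limit what these levels say.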
